A study of Mus musculus with 8 samples.

Results

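The genes described here are 48 genes of DNA replication and S phase. They were picked by gene symbol for their known roles, by a rule that uses no measured value but was drawn up with earlier results of these data known, and are 48 of the 58304 genes kept from the deposited expression table. RNA-seq was given for 8 libraries, 4 labelled rFGF4 (recombinant fibroblast growth factor 4) and 4 labelled PBS (the phosphate-buffered saline control). The labels describe wounds of C57BL/6 mice aged 6 to 8 weeks, sampled at day 6 from the skin within 2 mm of the wound, with the 2 groups differing in the agent applied. The study asked how rFGF4 changes gene expression while a wound heals. The table departs from that description, since all 58304 identifiers are human and 0 are mouse. The columns are named FGF4 and C with replicate numbers, and were assigned to the labelled samples by those names. Nothing below is therefore attributed to mouse wounds. The labels do not say whether each library came from a separate animal or culture, so the p-values measure the spread between these libraries, which may be technical.

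DNA replication begins at origins that are licensed when the origin recognition complex, CDC6 and CDT1 load the MCM helicase onto DNA. In S phase the helicase is activated by CDC45 and the GINS complex, primase and DNA polymerase alpha start each strand, and polymerases delta and epsilon extend it on the sliding clamp PCNA. Most of the genes that encode these factors are targets of the E2F transcription factors, which are released from the retinoblastoma protein once cyclin D and cyclin E kinases become active. In epidermis, replication is largely confined to the basal layer, and keratinocytes near a wound enter the cycle behind the migrating front. FGF signalling through ERK is a classical inducer of cyclin D1.

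Library totals ranged from 68889919 to 73074318 counts in the rFGF4 libraries and from 62044121 to 73680756 counts in the PBS libraries. Levels are given as scaled FPKM, the deposited FPKM (fragments normalised for transcript length and sequencing depth) multiplied by a factor per library, from 0.975 to 1.05, that carries the TMM scaling of the test. This unit is per length, so levels of different genes are set side by side below, as estimates. Such comparisons are limited by the uncertain counts of overlapping genes and the trends with length described below. The table's own Gene Ontology terms name DNA replication for 41 of the 48 members. The other 7 were TYMS, TK1, E2F1, E2F2, E2F7, E2F8 and UHRF1. Markers of the labelled tissue, skin, and of other cells were also read. All 8 markers of basal keratinocytes had a mean FPKM of 1 or more. Their summed level was 1990 to 2170 scaled FPKM in the rFGF4 libraries and 2110 to 2470 in the PBS libraries. Of the dermal fibroblast markers, 0 of 7 reached a mean FPKM of 1, and POSTN was at 0 throughout. Their sum was 0.43 to 0.499 in the rFGF4 libraries and 0.763 to 0.872 in the PBS libraries. None of the T and NK cell (6), skeletal muscle (6), melanocyte (4) and erythrocyte (4) markers reached that level. For differentiated keratinocytes 3 of 7 reached it, and LOR was at 0 throughout. Sums for this list were 21.8 to 26.8 in the rFGF4 libraries and 24.6 to 28 in the PBS libraries. The neutrophil list had 2 of 6 there, of which S100A9 was highest and keratinocytes also express it, with CSF3R, MPO and ELANE at 0. The endothelial list had 1 of 6, CDH5, with sums of 3.11 to 4.32 in the rFGF4 libraries and 1.88 to 3.11 in the PBS libraries. The macrophage list had 1 of 7, CD68, with sums of 7.96 to 11.0 in the rFGF4 libraries and 7.53 to 8.72 in the PBS libraries. What part other cells have in the results below was not tested.

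All but 1 of the replication genes missed the threshold for a difference between the groups. All 48 members passed the filter on low values, a mean FPKM of 1 or more across all 8 libraries, which 11536 of the 58304 genes did. By edgeR's quasi-likelihood test, adjusted over all tested genes, 0 members were higher and 1 was lower in the rFGF4 libraries at an adjusted p under 0.05. Over all tested genes the share called was 10%, with 5.49% higher and 4.54% lower. The member called was PRIM2, the large primase subunit. By DESeq2, 1 member was higher and 3 were lower; it called 15.8% of the tested genes, 8.51% higher and 7.33% lower. By limma on log2(FPKM + 1), 0 members were higher and 2 were lower, where 4.94% of the tested genes were higher and 5.1% were lower. On log2(FPKM + 0.1) the members' counts were also 0 and 2, beside 9.94% of the tested genes in either direction, 4.92% higher and 5.03% lower. With a library left out, 0 or 1 member passed in each direction. The share of tested genes called was then 6.2%, 9.33%, 5.85% and 10.1% without rFGF4 replicates 1 to 4, and 6.35%, 5.21%, 6.66% and 6.95% without PBS replicates 1 to 4. At an unadjusted p under 0.05 there were 7 members of 48, against 25.1% of the tested genes. In bulk libraries, fewer cells of a type and less RNA per cell cannot be told apart, and this applies to each difference below.

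The differences were also small in size. The median log2 fold change of the members, rFGF4 over PBS, was −0.02, beside 0.00 over all tested genes, and the extremes were −0.37 for PRIM2 and 0.50 for UHRF1. Of the 48 values, 28 were below 0, or 58.3%, beside 49.7% of the tested genes. The 95% interval of the log2 fold change lay within a 1.5-fold change either way for 46 members, as it did for 68.9% of the tested genes; the limit of 1.5-fold was chosen after the values were seen. The exceptions were POLD3, whose interval reached down to −0.66 and whose value moved from −0.30 (SE 0.16) to −0.16 (SE 0.08) without rFGF4 replicate 2, and UHRF1, whose interval reached up to 0.81. A miss of the threshold does not show equal levels, and these intervals are the sizes that the 8 libraries leave possible.

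**Figure D1:**
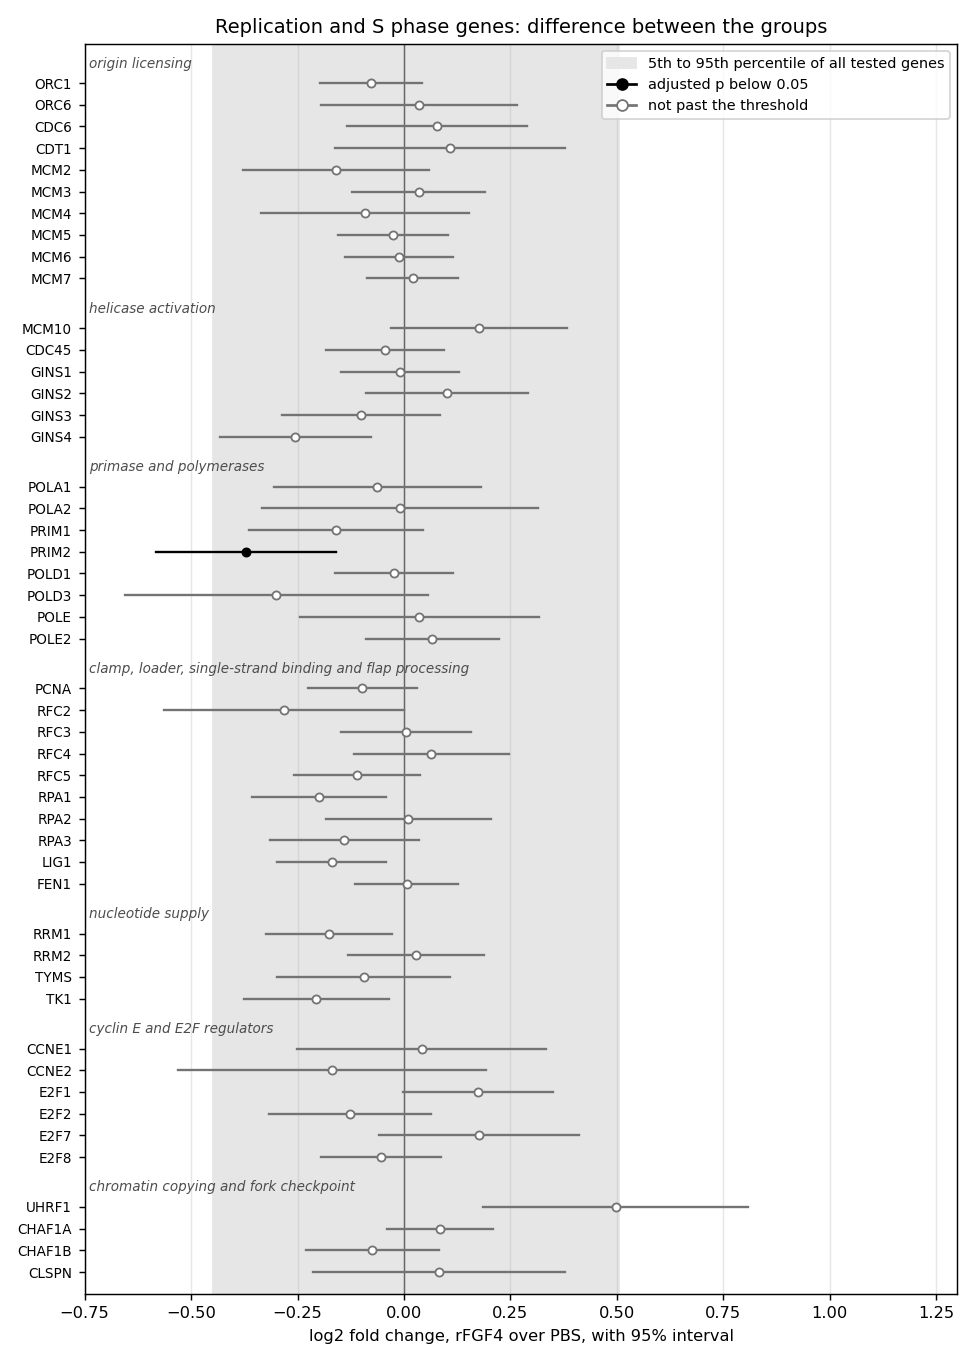
Log2 fold change of the 48 members, rFGF4 over PBS, with the 95% interval from edgeR's quasi-likelihood test (n = 4 libraries in each group), in order of role. The filled point is PRIM2, the only member past the threshold; the grey band runs from −0.45 to 0.51, the 5th to 95th percentile of all 11536 tested genes, and holds every point.

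None of the 10 licensing genes passed the test, and their log2 fold changes ran from −0.16 to 0.11. MCM7, a subunit of the replicative helicase and the most abundant of this group, stood at 101, 101, 102 and 107 scaled FPKM in the rFGF4 libraries, against 101, 100, 99.1 and 105 in the PBS libraries. Its groups overlapped almost completely, with a log2 fold change of 0.02 and a 95% interval of −0.09 to 0.13. The sign of that value turned with limma on the deposited FPKM and without rFGF4 replicate 4. MCM2, another helicase subunit and the member of this group with the smallest p, stood at 62.6, 57.2, 61.2 and 45.7 scaled FPKM in the rFGF4 libraries, against 61.8, 63.1, 62.9 and 65.4 in the PBS libraries. Replicate 4 of the rFGF4 group was the low one, and the difference of −0.16 on the log2 scale did not pass (SE 0.10, edgeR adjusted p = 0.353). MCM4 showed the same layout, with 37.9 scaled FPKM in rFGF4 replicate 4 and 51.7 to 53.8 in the other rFGF4 libraries, against 49.7 to 53.5 in the PBS libraries.

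The helicase subunits MCM2 to MCM7 form a ring with equal numbers of each, but their transcript levels per length were unequal. MCM7 was highest and MCM5 lowest in both groups, at means of 102.7 and 28.2 scaled FPKM in the rFGF4 libraries, against 101.3 and 28.7 in the PBS libraries, ratios of 3.65 and 3.53. MCM3 averaged 77.7 ± 4.6 in the rFGF4 libraries and 75.8 ± 5.23 in the PBS libraries (SD, n = 4 each), and MCM6 averaged 33.9 ± 1.67 and 34.2 ± 1.1. The loader genes were less abundant. CDC6, an ATPase of licensing, averaged 19.4 ± 2.44 in the rFGF4 libraries and 18.3 ± 0.789 in the PBS libraries. CDT1, which brings the helicase to origins, averaged 25.6 ± 4.28 and 23.7 ± 1.42. ORC1 averaged 18.8 ± 0.791 and 19.8 ± 0.547, and ORC6 6.44 ± 0.441 and 6.28 ± 0.748; both are subunits of the origin recognition complex. By coordinates, MCM7 overlaps MIR25 on its own strand and AP4M1 on the other, so its counts may include fragments of those genes.

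**Figure D2:**
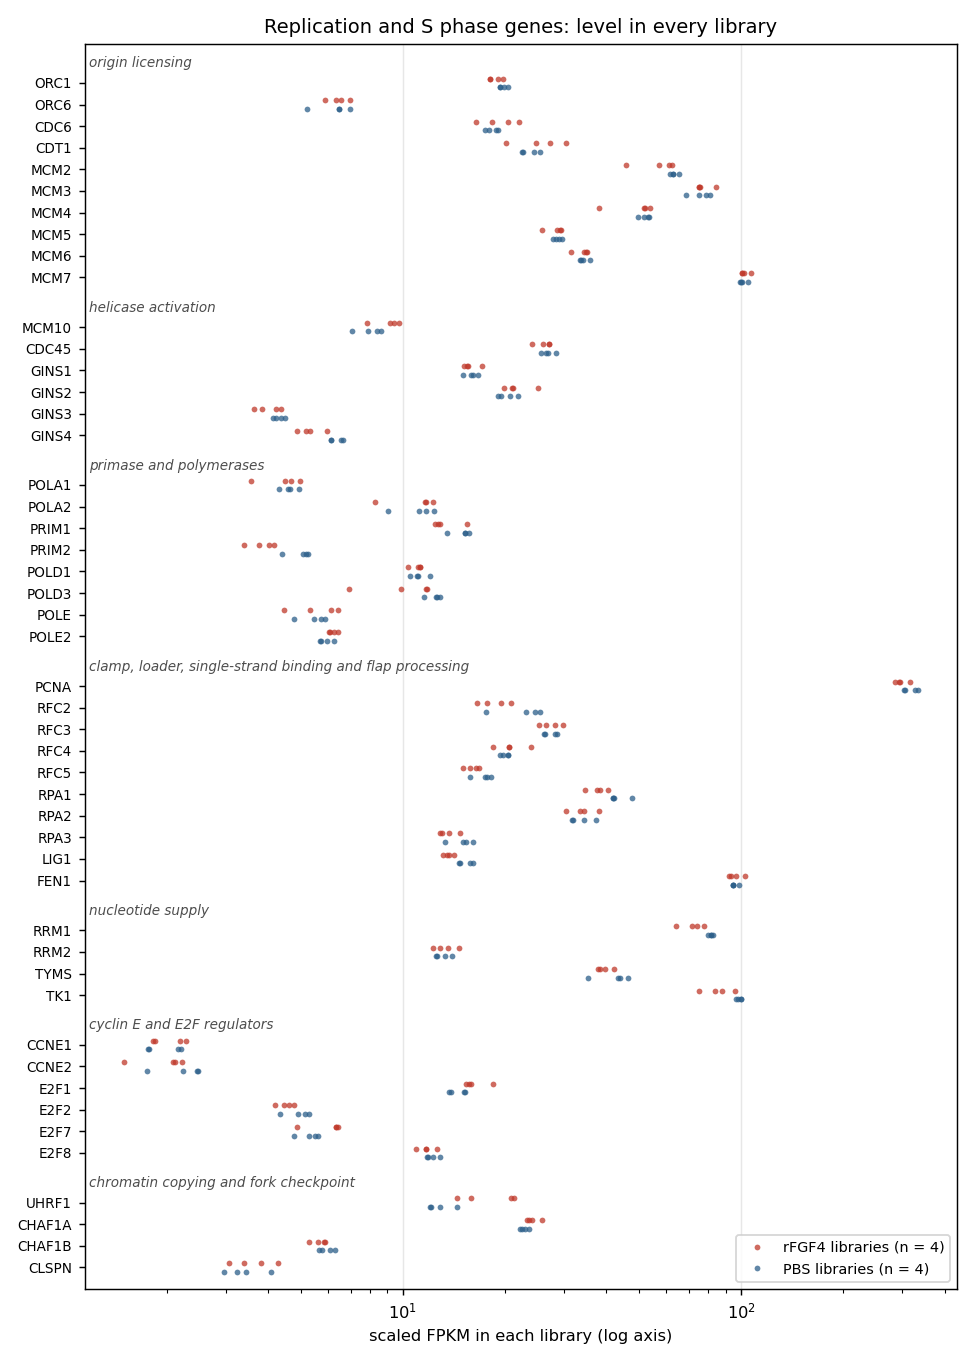
Level of each of the 48 members in every library, as scaled FPKM on a log axis, with the rFGF4 libraries above the PBS libraries in each row (n = 4 each). Levels spread from about 2 for CCNE1 and CCNE2 to a mean of 307 for PCNA, and most pairs of groups lie on top of each other.

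Of the 6 genes that turn the loaded helicase into a moving one, none passed. CDC45, the activating subunit and the most abundant of them, stood at 27.1, 24.1, 27.0 and 26.0 scaled FPKM in the rFGF4 libraries, against 26.5, 26.9, 25.5 and 28.4 in the PBS libraries, a log2 fold change of −0.04 (95% interval −0.18 to 0.09). GINS4, a subunit of the GINS complex, had the smallest p of the group. It stood at 5.32, 5.97, 4.85 and 5.19 scaled FPKM in the rFGF4 libraries, against 6.12, 6.14, 6.64 and 6.58 in the PBS libraries. These groups did not overlap, yet the difference of −0.26 on the log2 scale missed the threshold (SE 0.08, edgeR adjusted p = 0.0773). It passed by DESeq2 and without rFGF4 replicate 2 (adjusted p = 0.0298 and 0.032), with a range of 0.0298 to 0.181 over the 18 alternatives. The other 3 GINS subunits had log2 fold changes of −0.01 for GINS1, 0.10 for GINS2 and −0.10 for GINS3. MCM10, which helps to start the fork, averaged 9.05 ± 0.84 scaled FPKM in the rFGF4 libraries and 8.01 ± 0.695 in the PBS libraries, a log2 fold change of 0.18 (SE 0.09) that did not pass.

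PRIM2 fell among the 8 primase and polymerase genes, the other 7 of which did not pass. PRIM2 encodes the regulatory subunit of primase, which makes the RNA primers of each new strand, and lies on the plus strand of chromosome 6 at 57314805 to 57646850 as the table gives it (the sources used here name no build). It stood at 3.76, 4.03, 4.15 and 3.40 scaled FPKM in the rFGF4 libraries, against 4.40, 5.23, 5.06 and 5.16 in the PBS libraries. All rFGF4 libraries were below all PBS libraries, and PBS replicate 1 was the nearest to them. The difference was −0.37 on the log2 scale (SE 0.09, edgeR adjusted p = 0.0398), 0.774-fold of the PBS level. The call is close to the threshold: without PBS replicate 1 it held, with adjusted p = 0.0385, and without any other library it ended, with adjusted p of 0.0547 to 0.116. It also ended under a mean FPKM filter of 0.1, with no filter and with filterByExpr, with adjusted p of 0.0554, 0.0853 and 0.058. No other gene with a mean FPKM of 1 or more overlaps PRIM2 in the table.

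The partners of PRIM2 did not move with it past the threshold. PRIM1, the catalytic primase subunit and the most abundant of this group, stood at 12.7, 15.5, 12.4 and 12.9 scaled FPKM in the rFGF4 libraries, against 15.3, 15.7, 15.3 and 13.5 in the PBS libraries. Replicate 2 was high in the rFGF4 group and replicate 4 was low in the PBS group, so the groups overlapped, and the log2 fold change of −0.16 did not pass (SE 0.09, edgeR adjusted p = 0.313). PRIM1 overlaps NACA on the same strand, which stood at a mean of 36.7 FPKM, more than the 14.2 FPKM of PRIM1 itself, so its counts are uncertain. The polymerase alpha subunits POLA1 and POLA2 had log2 fold changes of −0.06 and −0.01. POLA1, at a mean of 4.52 FPKM, overlaps EEF1B2P3 at 38.3 FPKM on the other strand, and POLA2 overlaps a clone-named gene on its own strand, so their counts are uncertain too. POLD1 and POLD3, subunits of the lagging strand polymerase delta, had −0.02 and −0.30, and POLE and POLE2, subunits of the leading strand polymerase epsilon, had 0.04 and 0.07. POLD3, like POLA2, overlaps a clone-named gene on its own strand, so its counts are uncertain. The value for POLD3 had an SE of 0.16, with 6.91 scaled FPKM in rFGF4 replicate 2 and 9.87 to 11.8 in the other rFGF4 libraries, against 11.5 to 12.9 in the PBS libraries. POLA2 was low in that library too, at 8.26 scaled FPKM with 11.7 to 12.2 in the others of the group.

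None of the 10 genes of the clamp, its loader, single-strand binding and flap processing passed, and their median log2 fold change was −0.10. PCNA, the clamp that holds polymerases on DNA, was the most abundant member of all 48. It stood at 285, 295, 293 and 316 scaled FPKM in the rFGF4 libraries, against 304, 328, 306 and 333 in the PBS libraries. Replicate 4 was the highest of each group, the groups overlapped, and the log2 fold change of −0.10 did not pass (95% interval −0.23 to 0.03, edgeR adjusted p = 0.329). On the deposited FPKM the PCNA groups did not overlap, with 286 to 302 in the rFGF4 libraries, against 309 to 331 in the PBS libraries. LIG1, the ligase that seals Okazaki fragments, had the smallest p here. Its levels were 13.5, 14.2, 13.2 and 13.7 scaled FPKM in the rFGF4 libraries, against 14.7, 15.8, 14.7 and 16.2 in the PBS libraries. The groups did not overlap, but the log2 fold change of −0.17 did not pass (SE 0.06, edgeR adjusted p = 0.0965), except by DESeq2 (adjusted p = 0.038), with a range of 0.038 to 0.243 over the 18 alternatives.

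RPA1, the large subunit of the single-strand binding protein RPA, also had groups that did not overlap. It stood at 40.4, 38.4, 37.6 and 34.5 scaled FPKM in the rFGF4 libraries, against 41.7, 47.6, 42.0 and 41.9 in the PBS libraries, and the log2 fold change of −0.20 (SE 0.07) did not pass (edgeR adjusted p = 0.114). RPA1 overlaps SMYD4 and a clone-named gene on the other strand. Its partners RPA2 and RPA3 had values of 0.01 and −0.14. Among the clamp loader genes, RFC2 differed by −0.28 on the log2 scale (SE 0.12, did not pass), with 16.6 to 20.8 scaled FPKM in the rFGF4 libraries, against 17.7 in PBS replicate 1 and 23.1 to 25.4 in the other PBS libraries. RFC3, RFC4 and RFC5 had 0.01, 0.06 and −0.11. RFC4 overlaps EIF4A2, at a mean of 40.8 FPKM on the other strand, and its counts are uncertain. FEN1, the flap nuclease, averaged 96.2 ± 4.93 scaled FPKM in the rFGF4 libraries and 95.7 ± 1.91 in the PBS libraries, with a 95% interval of −0.11 to 0.13 for its log2 fold change. Signs of the values for RPA2, RFC3 and FEN1, all near 0, turned with scaling by library totals and with limma on deposited FPKM.

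The 4 genes of nucleotide supply did not pass. TK1, the thymidine kinase of the salvage pathway, was both the most abundant of them and the one with the smallest p. It stood at 87.8, 75.2, 83.9 and 95.7 scaled FPKM in the rFGF4 libraries, against 96.6, 100.3, 97.9 and 100.2 in the PBS libraries. All rFGF4 libraries were lower, replicate 4 by little, and the difference was −0.21 on the log2 scale (SE 0.07, edgeR adjusted p = 0.128). It passed with limma on log2(FPKM + 1), with limma on log2(FPKM + 0.1) and without rFGF4 replicate 4 (adjusted p = 0.0432, 0.0439 and 0.039), with a range of 0.039 to 0.29 over the 18 alternatives. RRM1, the large subunit of ribonucleotide reductase, stood at 71.6, 74.3, 77.5 and 64.0 scaled FPKM in the rFGF4 libraries, against 82.4, 81.3, 81.3 and 79.9 in the PBS libraries. Its groups did not overlap either, and the log2 fold change of −0.18 (SE 0.06) did not pass (edgeR adjusted p = 0.13).

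RRM2, the small subunit whose protein is made in S phase, averaged 13.4 ± 1.03 scaled FPKM in the rFGF4 libraries and 13.1 ± 0.672 in the PBS libraries. RRM1 was thus 5.37 times the level of RRM2 in the rFGF4 libraries, against 6.19 times in the PBS libraries. TYMS, the thymidylate synthase of the new-synthesis pathway, differed by −0.09 on the log2 scale (SE 0.09, did not pass) and overlaps ENOSF1 on the other strand. The 14 pseudogene rows that carry the name of PCNA, RFC3, RFC5, RPA2, FEN1, RRM2 or TYMS were at or near 0, the highest being RRM2P3 at a mean of 0.067 FPKM.

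None of the 6 cyclin E and E2F genes passed. E2F1, an activator of S phase genes, was both the most abundant and the one with the smallest p. It stood at 15.7, 15.4, 15.9 and 18.5 scaled FPKM in the rFGF4 libraries, against 15.1, 13.9, 13.7 and 15.3 in the PBS libraries. The groups were separate by a narrow gap, with replicate 4 highest in each, and the difference was 0.17 on the log2 scale (SE 0.08, edgeR adjusted p = 0.203). E2F2, another activator, had −0.13 (SE 0.08). The repressors E2F7 and E2F8, which are themselves induced in S phase, had 0.18 (SE 0.10) and −0.05 (SE 0.06). The cyclin E genes were the least abundant members. CCNE1 averaged 2.04 ± 0.237 scaled FPKM in the rFGF4 libraries and 1.98 ± 0.241 in the PBS libraries. CCNE2 averaged 1.98 ± 0.327 and 2.23 ± 0.338, and overlaps INTS8 and NDUFAF6 on the other strand.

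UHRF1 had the largest value above 0 of all 48 members. It encodes a chromatin protein that brings the maintenance DNA methyltransferase to newly copied DNA, and lies on the plus strand of chromosome 19 at 4903080 to 4962154 as the table gives it. It stood at 15.9, 21.4, 14.5 and 20.9 scaled FPKM in the rFGF4 libraries, against 14.4, 12, 12.9 and 12.1 in the PBS libraries. The rFGF4 libraries split into a pair near 15 and a pair near 21, and the lowest all but touched PBS replicate 1. On the deposited FPKM the groups overlapped, with 14.2 in rFGF4 replicate 3 and 14.7 in PBS replicate 1. The difference, 0.50 on the log2 scale (SE 0.14) or 1.41-fold, missed the threshold (edgeR adjusted p = 0.0556). It passed by DESeq2 and without rFGF4 replicate 3 (adjusted p = 0.0097 and 0.0329), with a range of 0.0097 to 0.146 over the 18 alternatives.

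CHAF1A and CHAF1B, the subunits of the histone chaperone CAF-1 among the members, had values near 0. CHAF1A, the most abundant gene of this group, stood at 25.8, 23.3, 23.5 and 24.1 scaled FPKM in the rFGF4 libraries, against 23.6, 22.9, 22.1 and 22.5 in the PBS libraries, a difference of 0.08 on the log2 scale (SE 0.05, edgeR adjusted p = 0.384). CHAF1B had −0.07 (SE 0.07) and shares its strand and span in part with MORC3. CLSPN, which relays the checkpoint signal of a stalled fork, had 0.08 (SE 0.13). Over all 48 members, 14 overlap another gene with a mean FPKM of 1 or more. The sources used here do not say if strand was used in counting.

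Groups that did not overlap were thus seen for 6 members lower in the rFGF4 libraries (PRIM2, GINS4, TK1, RPA1, RRM1 and LIG1) and 2 higher (E2F1 and UHRF1). Over all tested genes that pattern held for 9.25% lower and 10.1% higher. On the deposited FPKM it was 8 lower and 1 higher member, beside 10.4% and 8.76% of the tested genes. PCNA and GINS3 joined the lower members there, and UHRF1 left the higher ones. On that scale the median difference over all tested genes was −0.02 (log2).

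**Figure D3:**
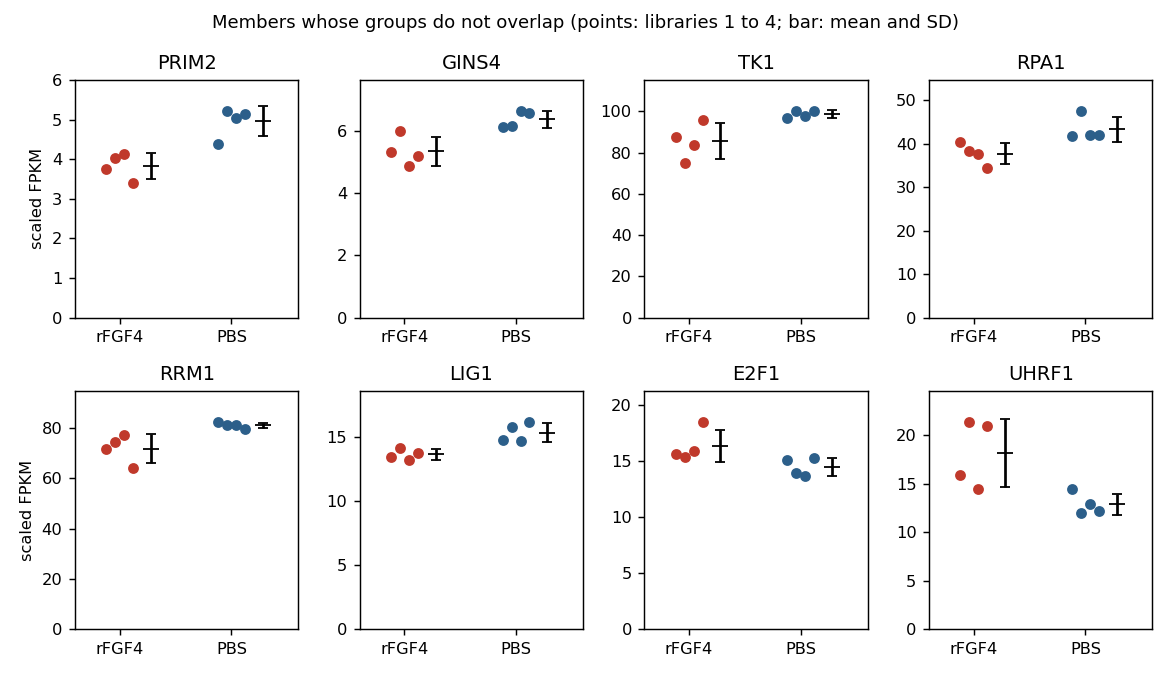
Scaled FPKM of the 8 members whose groups did not overlap, with a point per library and the mean and SD beside it (n = 4 each, axes from 0). PRIM2 is the only one past the threshold; UHRF1 and E2F1 are higher in the rFGF4 libraries and the other 6 are lower.

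The median coefficient of variation of the members within a group was 8.33% in the rFGF4 libraries and 5.33% in the PBS libraries, beside 11.5% and 8.7% over all tested genes. Values for the mitosis genes, listed further on, were close to these, at 8.13% in the rFGF4 libraries and 6.5% in the PBS libraries, and further replication genes had 8.84% and 8.18%. The members' coefficient of variation was under 10% for 31 in the rFGF4 libraries and for 41 in the PBS libraries. The share of all tested genes under that limit was not computed. The members were also more abundant than most tested genes, with a median level of 15.7 scaled FPKM beside 5.71, and 39 of 48 lay above the median tested gene. Set against the mean of all 8 libraries, the median member deviated by −0.02, −0.02, 0.02 and −0.03 on the log2 scale in rFGF4 replicates 1 to 4, and by 0.00, 0.04, 0.03 and 0.06 in PBS replicates 1 to 4.

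In some libraries the members' deviations followed transcript length. A relative length for each gene was taken from its ratio of counts to FPKM. Across the 48 members, the deviation in a library was correlated with the logarithm of this length. A negative r means lower values in longer members. It was r = −0.40 in rFGF4 replicate 4 and r = −0.40 in PBS replicate 4. The r was 0.51, 0.24 and 0.05 in rFGF4 replicates 1 to 3, and 0.33, −0.12 and 0.04 in PBS replicates 1 to 3. Across all tested genes it was −0.23 in rFGF4 replicate 4, −0.04 in PBS replicate 4 and −0.02 to 0.08 in the others. These are correlations across genes within a library, and genes are not independent replicates. The 24 longer members had a median deviation of −0.14 in rFGF4 replicate 4, and the 24 shorter members 0.01. In PBS replicate 4 these medians were close, at 0.05 for the longer and 0.06 for the shorter members. MCM4, POLA1 and POLE, at 1.53, 1.40 and 3.67 times the median length, were lowest of their group in rFGF4 replicate 4. So were MCM2 and CCNE2, at 1.03 and 0.969 times it. Not all long members were low in that library: RRM2 and MCM5, at 2.01 and 1.6 times it, deviated by 0.04 and 0.04. The part of length in the differences was not tested. Without rFGF4 replicate 4, the members' median log2 fold change was −0.03, 0 members were higher and 1, TK1, was lower.

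**Figure D4:**
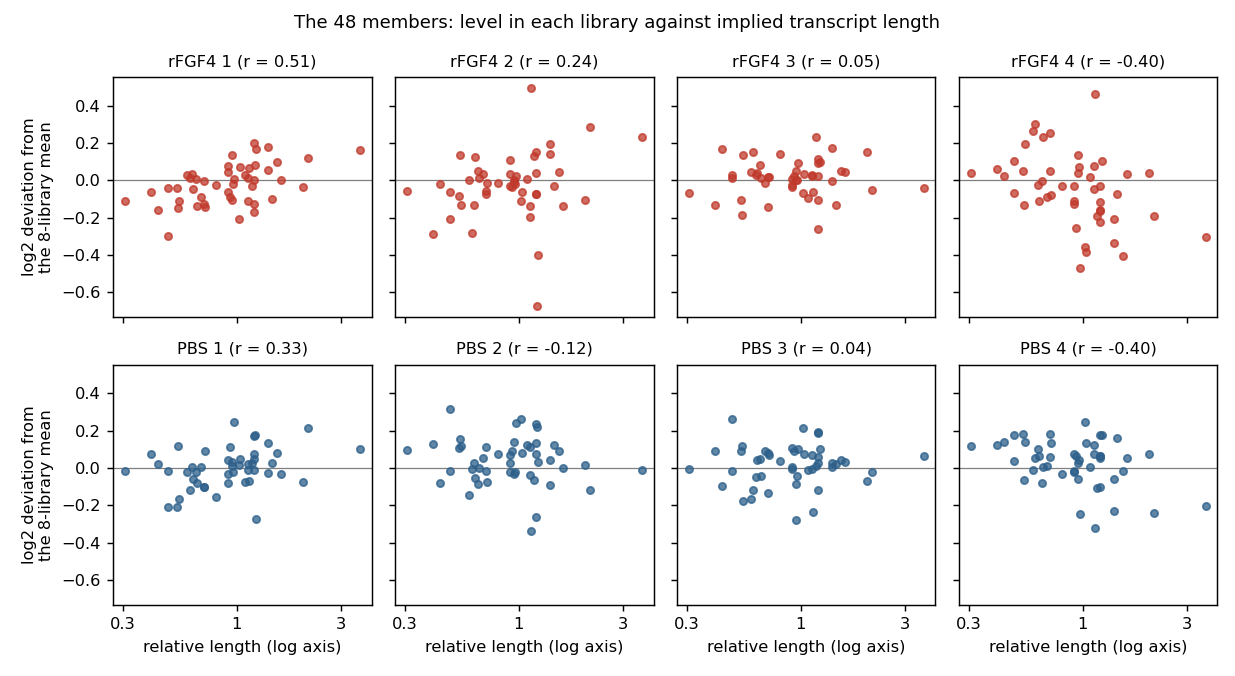
Log2 deviation of each of the 48 members from its mean over the 8 libraries, against relative length on a log axis, in a panel per library (rFGF4 above, PBS below). Points fall to the right in the fourth library of each group (r = −0.40 in both) and climb in rFGF4 replicate 1 (r = 0.51).

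Other genes of replication, the G1 regulators upstream of E2F and the mitosis genes were read from the same fit. Of 70 further replication genes, 67 were tested and 3 rose in the rFGF4 libraries, where 5.49% of all tested genes did, and 0 fell; 64 did not pass, and the median log2 fold change was 0.00. By DESeq2 7 were higher and 1 was lower, beside 8.51% and 7.33% of all tested genes. CTPS1, a CTP synthase, averaged 9.68 ± 0.654 scaled FPKM in the rFGF4 libraries and 7.1 ± 0.727 in the PBS libraries, a rise of 0.45 (SE 0.09, edgeR adjusted p = 0.0145). E2F4, a repressor of S phase genes in resting cells, averaged 31.5 ± 3.42 and 24.1 ± 0.959, a rise of 0.39 (SE 0.08, edgeR adjusted p = 0.023). CDC25A, the phosphatase that activates CDK2, averaged 6.99 ± 0.3 and 5.53 ± 0.452, a rise of 0.34 (SE 0.08, edgeR adjusted p = 0.0298). The call for CTPS1 held under all 18 alternatives. That for E2F4 ended without rFGF4 replicate 1 or 3 or PBS replicate 1, 2 or 3. That for CDC25A ended with no filter and without any library other than PBS replicate 2.

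Of 11 tested genes for D cyclins, their kinases CDK4 and CDK6, and CDK inhibitors, 2 rose and 3 fell in the rFGF4 libraries, beside 5.49% and 4.54% of all tested genes, and 6 did not pass. By DESeq2 2 were higher and 4 were lower, beside 8.51% and 7.33% of all tested genes. By limma on either scale, and with scaling by library totals, 1 was higher and 4 were lower. Of the 2 that rose in the edgeR test, 1 is a cyclin and 1 a kinase. CCND1, the D cyclin that ERK signalling induces, averaged 117 ± 1.32 scaled FPKM in the rFGF4 libraries and 81.8 ± 4.41 in the PBS libraries, and CDK6, a partner kinase, rose by 0.52 (SE 0.12). The CDK4 and CDK6 inhibitors CDKN2B and CDKN2C fell by 0.78 (SE 0.07) and 0.77 (SE 0.08). CDKN1B, the p27 inhibitor of cyclin E kinases, fell by 0.42 (SE 0.06), to 13.7 ± 0.434 in the rFGF4 libraries, against 18.4 ± 0.769 in the PBS libraries. The calls for CCND1, CDKN2B, CDKN2C and CDKN1B held under all 18 alternatives, while that for CDK6 ended under 10 of them, among them scaling by library totals and each library left out except rFGF4 replicates 2 and 4.

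Of the 37 mitosis genes, 2 fell, where 4.54% of all tested genes did, 0 rose and 35 did not pass, with a median log2 fold change of −0.13. The number lower was 5 by DESeq2, where 7.33% of all tested genes were lower. It was 4 with the replicate number as a block, and from 1 to 3 under the other alternatives. The share of all tested genes lower with the block is not given here, so no excess is read from that count. KIF20A, a mitotic kinesin, fell by 0.33 (SE 0.06), a call that held under all 18 alternatives. CCNB2, a B cyclin, fell by 0.25 (SE 0.06), a call that ended under 10 of them, among them each library left out except rFGF4 replicate 4. Values below 0 were seen for 33 of these 37, or 89.2%, beside 49.7% of all tested genes and 28 of the 48 replication members. The difference between the lists was not tested. For scale, DUSP6, a phosphatase that ERK signalling induces, averaged 37.3 ± 4.66 scaled FPKM in the rFGF4 libraries and 7.55 ± 0.887 in the PBS libraries, a rise of 2.31 (SE 0.12, edgeR adjusted p = 0.000115). DUSP6 was chosen for mention after its value was seen. It comes from a further list of 11 FGF and ERK responsive genes, drawn up with earlier results of these data known. Of these, 10 were tested and 10 rose, where 5.49% of all tested genes did, with a median log2 fold change of 1.39.

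**Figure D5:**
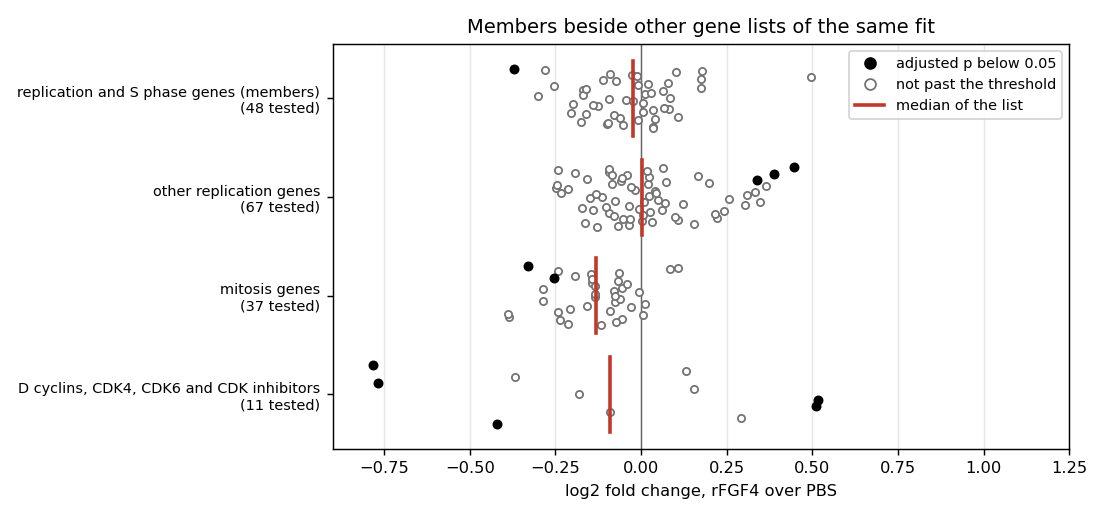
Log2 fold change, rFGF4 over PBS, of the 48 members and of 3 other gene lists from the same edgeR fit; filled points have an adjusted p under 0.05 and the red line is the list's median. The members centre on −0.02 with 1 filled point, the further replication genes on 0.00 with 3, the mitosis genes on −0.13 with 2, and the genes of D cyclins, their kinases and CDK inhibitors on −0.09 with 5.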

How the data were processed

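Per the file headers, the authors deposited 2 values per gene and library, FPKM and a count. FPKM of 0.0001 or less, the value most unexpressed genes hold, were read as 0. The submitters' processing notes name HISAT2 2.0 and StringTie 1.3.0. Genome build, annotation and strand setting are not stated in those notes or headers. The deposited counts are whole but are estimated counts: low values piled up at 4 (9781 entries, against 3485 at 3 and 1977 at 5), so 1 fragment appears to be worth about 4 counts. The 521 genes left out of 58825 are those on the Y chromosome plus XIST and TSIX.

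edgeR 4.0.16 in R 4.3.3 (TMM scaling, glmQLFit and glmQLFTest) was run on the deposited counts of the 8 libraries, 4 per group, for genes whose mean FPKM was 1 or more. Tests were two-sided with Benjamini-Hochberg adjustment over 11536 genes. The SE was derived from the F statistic, and the 95% interval uses it with the test's degrees of freedom. Scaled FPKM match the test's normalised counts to 0.002 (SD, log2, 10330 genes). Precision rests on 4 libraries per group at the totals given above. Those totals are in deposited counts, of which about 4 appear to stand for 1 fragment. DESeq2 1.42.0 and limma 3.58.1 served as alternatives. The code was tested on simulated counts.

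Members, lists and tests were chosen with earlier results of these data known. Values per library are given for members past the threshold and, per role, for the most abundant member and the one with the smallest p. RPA1 and RRM1 were added after their values were seen, since their groups did not overlap. The reference tables at hand are mouse and were not used here.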

Additional observations from a re-analysis of the deposited data

Results flagged for a closer look

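In 9 of 96 groups of 4 libraries (48 members in 2 groups), a library stood apart from the other 3 by more than Dixon's 95% critical value for the gap over the range. Chance flags about 1 in 20 groups of independent, normally distributed values, whereas these groups come from the same libraries. The share flagged over all tested genes was not computed, so no excess among the members is read from this count. In rFGF4 replicate 4, MCM4 was low at 37.9 scaled FPKM (others 51.7 to 53.8), E2F7 was low at 4.86 (others 6.33 to 6.42) and E2F1 was high at 18.5 (others 15.4 to 15.9). In rFGF4 replicate 2, POLA2 was low at 8.26 (others 11.7 to 12.2) and PRIM1 was high at 15.5 (others 12.4 to 12.9). In rFGF4 replicate 3, MCM3 was high at 84.5 (others 75 to 75.8) and POLD1 was low at 10.3 (others 11.1 to 11.3). Among the PBS libraries, RPA1 was high in replicate 2 at 47.6 (others 41.7 to 42.0) and FEN1 was high in replicate 4 at 98.6 (others 94.7 to 94.9).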

How the results depend on the processing

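Under the 18 alternatives, the members past the threshold numbered 0 or 1 higher and 0 to 3 lower. In all, 5 members passed under at least 1 setting (PRIM2, GINS4, LIG1, TK1 and UHRF1). The members lower in the rFGF4 libraries numbered 0 under a mean FPKM filter of 0.1, with no filter and with filterByExpr, 3 by DESeq2 (and 1 higher), and 2 by limma on log2(FPKM + 1) and on log2(FPKM + 0.1). With a library left out they numbered 0 to 1, with 0 to 1 higher. PRIM2 passed under 7 of 18. The members' median log2 fold change was −0.0494 by limma on log2(FPKM + 0.1), where the median over all tested genes was −0.03 (0.00 in the edgeR test reported), ran from −0.0484 to −0.022 with a library left out and was below 0 under all alternatives. The cause of the remaining shifts was not tested. Among members that never passed, values near 0 changed sign in 36 cases with a library left out and in 13 under the other alternatives. Dividing counts by 4, chosen after seeing the data, left PRIM2 as the lone call. The tested genes past the threshold numbered 1157, but 1828 by DESeq2 and 601 to 1166 with a library left out. They numbered 1164 with median-of-ratios scaling and 1137 with library totals only. Under a mean FPKM filter of 0.1, no filter and filterByExpr they numbered 1167, 861 and 1164. The number of genes tested changes with the filter.

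Same-numbered libraries of the 2 groups were not paired by the labels. The correlation of their deviations from the group means was 0.13, 0.05, −0.01 and 0.17 for numbers 1 to 4, and 3 of 4 rFGF4 libraries correlated best with their own number. With the replicate block, 0 members were lower (PRIM2 adjusted p = 0.0642), 0 were higher, and the tested genes past the threshold numbered 1013.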
